A study of Arabidopsis thaliana with 9 samples.

Results

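The transcripts described here are those read by the mitochondrial probe sets of the Affymetrix ATH1 array, in 3 lines of Arabidopsis thaliana. They were chosen from the array's organelle block, a run of 126 consecutively numbered probe sets, by leaving out every probe set annotated to a plastid gene symbol and then every one whose mean signal over the 9 arrays was under 25. Of the 52 probe sets left by the first step, 22 met the minimum, out of 22810 on the array. Per the annotation used, 9 of the 22 carry symbols of genes of the mitochondrial genome: nad4, nad4L, nad6, nad9, cox2, ccb206, ccb382, ccb452 and orfX. A further 3 carry AT2G07 locus names of chromosome 2, and 10 are unnamed. The set is therefore mitochondrial by name for 9 members, while 3 of the unnamed members, 244979_at, 244981_at and 244990_s_at, have plastid genes as their nearest named neighbours by number on both sides.

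The lines were iae1, iae2 and B1798, with 3 arrays each, all in the Ler ecotype and sampled at growth stage 1.0. The iae lines are known from genetic work on increased excision of Ac, a transposon of maize. No label calls B1798 a control, and it is taken here as the line to compare with because it has no iae name. The material was crown, hypocotyl, cotyledons and the apical meristem bud, from plants grown with 1% sucrose and pooled by 30, and whether a pool served 1 array is not stated. Nothing in the labels says that the replicates of a line were grown separately. The p-values therefore set a difference between lines only against the scatter among these samples, and that scatter may be technical.

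Plant mitochondria keep a genome of their own, which encodes part of the respiratory chain (nad subunits of complex I, cob of complex III, cox subunits of complex IV, atp subunits of the ATP synthase), the cytochrome c maturation proteins, some ribosomal proteins and the ribosomal RNAs. The remaining subunits are encoded in the nucleus and imported. The cDNA of this study was primed with oligo-dT, per the labels, and a poly(A) tail on a plant mitochondrial transcript is known as a mark for degradation and not as a mark of a stable message. The signals therefore describe what oligo-dT priming captured from these transcripts, and the share of each transcript captured was not tested. Chromosome 2 of the Columbia accession carries a large copy of the mitochondrial genome, so signals of a transcript from the organelle and from that copy cannot be told apart by probe sets that match both. In these whole-tissue samples, fewer mitochondria-rich cells, fewer mitochondria per cell and less RNA per mitochondrion also cannot be told apart.

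All 22 members entered the fit, a limma linear model on log2(signal + 16) over 14404 probe sets and all 9 arrays, where a probe set was called at a Benjamini-Hochberg adjusted p below 0.05. Each adjusted p below comes from that fit unless its sentence or paragraph names a changed fit, with an array left out, no filter or a covariate. Log2 fold changes refer to the log2(signal + 16) scale, which understates the change of dim probe sets, and 14 of the 22 members had a mean signal under 60. The mean signals of the members ran from 26.5 for an unnamed member to 347 for nad4. The median standard deviation within lines was 0.142 on the log2 scale for the 22 members and 0.132 for all tested probe sets.

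In iae2, 7 of the 22 members were called against B1798, 5 higher and 2 lower, which is 31.8% of the set. Over all tested probe sets 17.8% were called in this comparison, 9.77% higher and 7.99% lower. The calls ran in both directions within the same respiratory complex: nad4 fell and nad4L rose. Regardless of sign, the median log2 fold change was 0.288 in the set and 0.15 over all tested probe sets, and the median with its sign was 0.166 against 0.00268. In iae1, 0 of 22 were called against B1798, where 7.21% of all tested probe sets were called, 3.8% higher and 3.42% lower. At an unadjusted p below 0.05 limma gave 4 of the 22 members in iae1 and 12 in iae2. Of all 14404 tested probe sets it gave 3070 in iae1 and 4352 in iae2.

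Among the genes of complex I, the NADH dehydrogenase that feeds electrons into the chain, nad4 encodes a proton-pumping subunit of the membrane arm. Its signal was 224.3, 228.4 and 257.7 on the iae2 arrays, against 366.1, 405.2 and 336.2 on the B1798 arrays. Every iae2 array lay below every B1798 array. The log2 fold change was -0.61 ± 0.08 (SE, adjusted p = 0.000104), with means of 236.8 ± 18.2 in iae2 and 369 ± 34.6 in B1798 (SD, n = 3 each).

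nad4L, another membrane-arm subunit of the same complex, had signals of 38.1, 42.4 and 43.0 in iae2, against 25.1, 28.0 and 21.1 in B1798. Here every iae2 array lay above every B1798 array. The log2 fold change was 0.49 ± 0.12 (SE, adjusted p = 0.0108). The remaining 2 complex I genes did not pass. nad6, also of the membrane arm, had 44.3, 40.1 and 49.6 in iae2 against 50.6, 49.5 and 42.9 in B1798 (log2 fold change -0.07, adjusted p = 0.718), and its arrays overlapped. nad9, of the arm that reaches into the matrix, had 48.0, 42.3 and 33.9 in iae2 against 39.0, 36.6 and 31.3 in B1798 (0.15, adjusted p = 0.46), again with overlap.

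cox2 encodes the copper-binding subunit of cytochrome c oxidase (complex IV) that takes electrons from cytochrome c. Its signal was 50.4, 53.8 and 41.5 in iae2, against 71.2, 68.1 and 68.1 in B1798, so that the lines did not overlap. The log2 fold change was -0.40 ± 0.12 (SE, adjusted p = 0.0335). The call was lost when any array of iae2 other than replicate 2, or any array of B1798, was removed (highest adjusted p = 0.135), and without the filter on dim probe sets (adjusted p = 0.0825).

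The cytochrome c maturation genes take part in moving heme and attaching it to apocytochrome c. ccb452, named ccmFC in RefSeq and part of the heme-attaching CcmF protein, had 156.2, 170.8 and 164.7 in iae2, against 111.3, 99.6 and 119.5 in B1798. All 3 iae2 arrays lay above all 3 of B1798, and the log2 fold change was 0.51 ± 0.09 (SE, adjusted p = 0.00062). This probe set is of the s type, which on this array design can match more than 1 transcript. ccb382, named ccmFN1 in RefSeq and another piece of CcmF, had 121.7, 128.5 and 112.4 in iae2, against 139.5, 174.0 and 136.8 in B1798. Its arrays did not overlap, yet the fold change of -0.27 ± 0.10 did not pass (adjusted p = 0.0818). ccb206, named ccmB, a membrane subunit of the maturation system's transporter, had 41.0, 40.0 and 35.5 in iae2 against 33.0, 32.8 and 47.3 in B1798, overlapping (0.04, adjusted p = 0.871).

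orfX, named mttB in RefSeq, encodes a membrane protein related to the TatC subunit of bacterial twin-arginine transport. It had 99.9, 110.8 and 97.2 in iae2, against 138.1, 99.1 and 159.8 in B1798, where replicate 2 lay within the iae2 range. The log2 fold change of -0.30 ± 0.12 did not pass (adjusted p = 0.112). Without B1798 replicate 2 it was -0.47 and passed (adjusted p = 0.00582), so that 1 array decided this call.

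**Figure D1:**
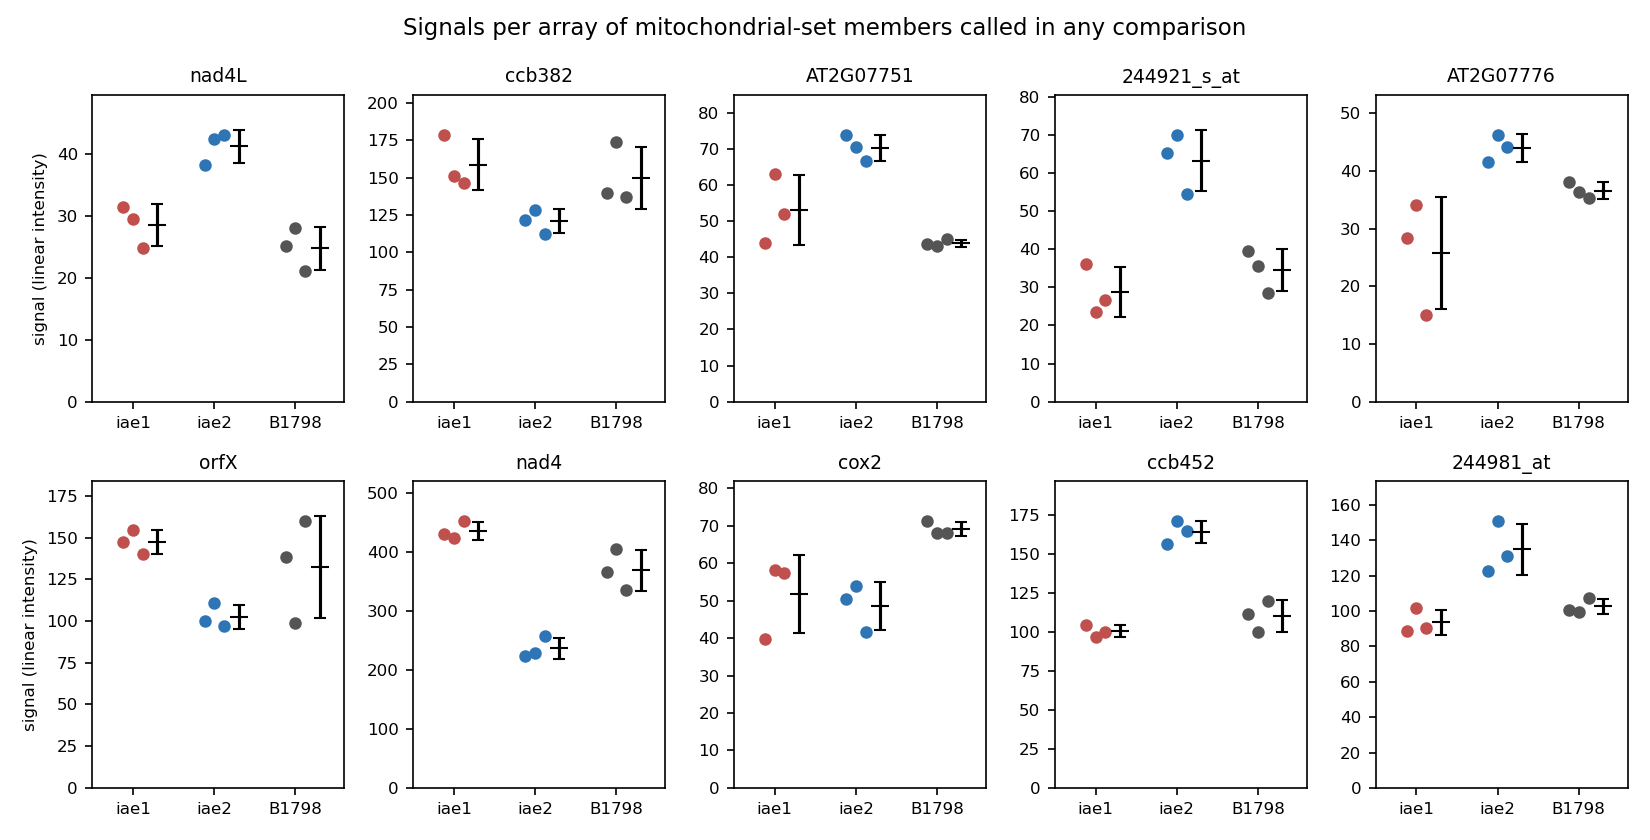
Signal per array (linear intensity, axis from 0) of the 10 members called in at least 1 of the 3 comparisons, with iae1, iae2 and B1798 from left to right in each panel. Points are arrays, and black marks give the mean ± SD of 3 arrays. The nad4 points of iae2 (224.3 to 257.7) lie below those of both other lines, and the ccb452 points of iae2 (156.2 to 170.8) lie above them.

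The chromosome 2 loci stand for the nuclear copy of mitochondrial sequence in the annotation. AT2G07751, read by an s-type probe set, had 73.8, 70.4 and 66.6 in iae2, against 43.6, 43.1 and 44.9 in B1798. The lines did not overlap, and the log2 fold change was 0.53 ± 0.11 (SE, adjusted p = 0.00363). AT2G07776 had 41.5, 46.2 and 44.1 in iae2 against 38.1, 36.3 and 35.3 in B1798, which did not overlap either but did not pass (0.19, adjusted p = 0.445). AT2G07708 had 41.6, 43.6 and 29.1 in iae2 against 33.3, 32.9 and 29.4 in B1798, with overlap (0.17, adjusted p = 0.431).

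Of the 10 unnamed members 2 were called in iae2, both higher, which is 20% and near the 17.8% of all tested probe sets. 244921_s_at, an s-type probe set, had 65.4, 70.0 and 54.5 in iae2, against 39.5, 35.7 and 28.6 in B1798. With no overlap, its log2 fold change was 0.65 ± 0.13 (SE, adjusted p = 0.00313), the highest of the 22. 244981_at, one of the 3 probe sets numbered among plastid genes, had 122.6, 150.8 and 131.3 in iae2, against 100.6, 99.7 and 107.5 in B1798 (0.34 ± 0.09, adjusted p = 0.0185). This call was lost without iae2 replicate 2 or without B1798 replicate 2 (adjusted p up to 0.0978). The log2 fold changes of the other 8 unnamed members in iae2 ran from -0.23 for 244924_at to 0.41 for 244990_s_at, and 0 of them passed. The brightest of them, 244906_at, had 216.7, 304.3 and 346.5 in iae2 against 263.0, 280.0 and 262.4 in B1798, with overlap (0.08, adjusted p = 0.726). In iae1 it had 233.9, 241.2 and 265.0 (-0.12, adjusted p = 0.652). Leaving out the 3 members numbered among plastid genes left 6 of 19 called in iae2.

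244990_s_at and 244903_at changed their call with 1 array. 244990_s_at had 63.1, 59.8 and 72.5 in iae1 and 69.9, 47.9 and 71.8 in iae2, against 69.8, 30.8 and 35.7 in B1798, where replicate 1 stood at about the level of the iae lines. The log2 fold change was 0.45 in iae1 (adjusted p = 0.172), and for iae2 it was 0.41 (adjusted p = 0.156). Neither passed, while without B1798 replicate 1 the iae1 value was 0.72 (adjusted p = 0.00894) and the iae2 value 0.67 (adjusted p = 0.00555). 244903_at had 99.1, 75.1 and 103.2 in iae2 against 78.6, 62.7 and 70.7 in B1798 (0.32, adjusted p = 0.0665), and without iae2 replicate 2 the fold change was 0.44 (adjusted p = 0.0167).

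The GAPDH 3'/5' signal ratio, a sign of how far the labelled RNA reached toward the 5' end, was 1.73 to 1.98 on the iae2 arrays, against 2.27 to 3.11 on the B1798 arrays, so it moved with the line. On the iae1 arrays it was 2.32 to 2.48. With this ratio as a covariate 0 of the 22 members were called in iae2 against B1798. Calls over all 14404 tested probe sets in this comparison fell from 2558 to 393 with it. The log2 fold change of nad4 was then -0.62 ± 0.18 (adjusted p = 0.0859), that of ccb452 0.59 ± 0.18 (adjusted p = 0.116) and that of 244921_s_at 0.30 ± 0.27 (adjusted p = 0.65). Over the 22 members the median standard error in iae2 was 0.257 with the covariate and 0.123 without it, while the median size of the fold changes was 0.28 and 0.288.

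**Figure D2:**
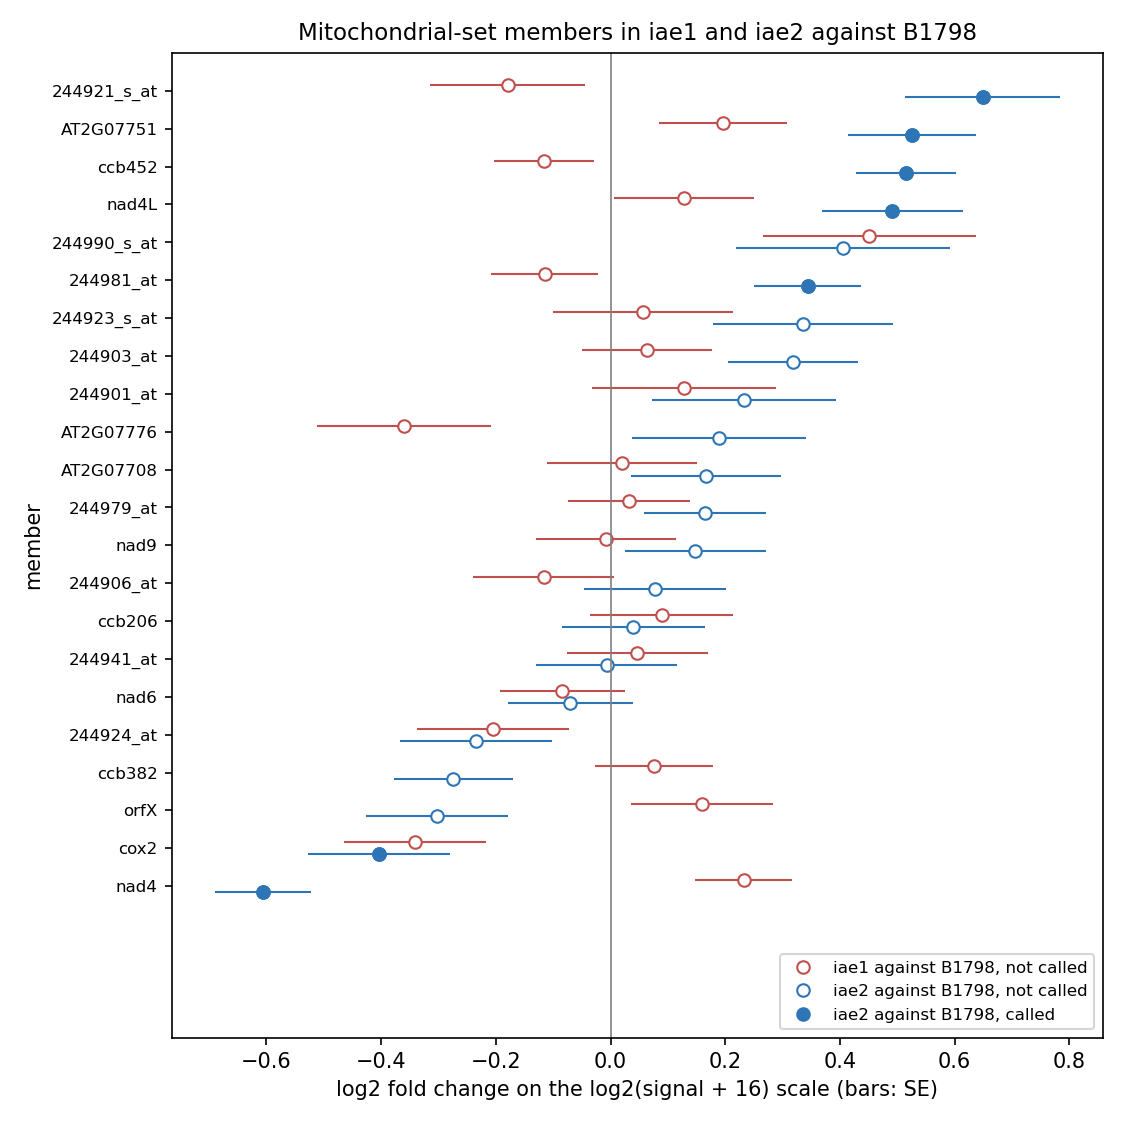
Log2 fold changes of the 22 members against B1798, in iae1 and in iae2, on the log2(signal + 16) scale, with bars for the standard error and filled points for called members. Members run from the highest iae2 fold change at the top (244921_s_at, 0.65) to the lowest at the bottom (nad4, -0.61), and the filled points are 7 in iae2 and 0 in iae1.

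In iae1 the log2 fold changes against B1798 ran from -0.36 for AT2G07776 to 0.45 for 244990_s_at, with a median of 0.0398, against 0.00945 over all tested probe sets. The median size was 0.116 in the set and 0.121 over all tested probe sets. AT2G07776 had 28.3, 34.0 and 15.0 in iae1 against 38.1, 36.3 and 35.3 in B1798. All iae1 arrays lay below B1798, but replicate 3 lay far below the others, and the change did not pass (adjusted p = 0.181). cox2 had 39.8, 58.3 and 57.3 in iae1 against 71.2, 68.1 and 68.1 in B1798 (-0.34 ± 0.12, adjusted p = 0.116). nad4 had 430.3, 423.5 and 452.3 in iae1 against 366.1, 405.2 and 336.2 in B1798 (0.23 ± 0.08, adjusted p = 0.116). For both genes the lines did not overlap and the test did not pass, which does not show that the levels were equal.

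In the direct comparison of iae1 with iae2, 9 of the 22 members were called, 3 higher and 6 lower in iae1, or 40.9% of the set. Over all tested probe sets 19.6% were called, 9.44% higher and 10.2% lower. nad4 was higher in iae1, with means of 435 ± 15.0 in iae1 and 236.8 ± 18.2 in iae2 (SD, n = 3 each) and a log2 difference of 0.84 ± 0.08 (SE, adjusted p = 3.76e-06). ccb452 was lower in iae1, with 104.3, 96.6 and 99.8 in iae1 against 156.2, 170.8 and 164.7 in iae2 (-0.63 ± 0.09, adjusted p = 9.78e-05). 244921_s_at was lower as well, with 36.1, 23.6 and 26.7 in iae1 against 65.4, 70.0 and 54.5 in iae2 (-0.83 ± 0.13, adjusted p = 0.000429). For these 3 members no array of iae1 reached into the range of iae2, and they, like 244981_at, were called with each array left out in turn.

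The other 6 calls between the iae lines were smaller or less firm. 244981_at was lower in iae1 (88.6, 101.9 and 90.4 against 122.6, 150.8 and 131.3 in iae2), with a log2 fold change of -0.46 and an adjusted p of 0.0026. orfX was higher in iae1 (147.2, 154.4 and 140.4 against 99.9, 110.8 and 97.2 in iae2; 0.46, adjusted p = 0.0156), and this call did not survive leaving out iae1 replicate 2 or iae2 replicate 3. ccb382 was higher in iae1 (178.6, 151.1 and 146.7 against 121.7, 128.5 and 112.4 in iae2; 0.35, adjusted p = 0.0256), which was not called without iae1 replicate 1 or iae2 replicate 1 or 3. Of the chromosome 2 loci AT2G07776 was lower in iae1 (log2 fold change -0.55, adjusted p = 0.0186), lost without iae1 replicate 3 or iae2 replicate 2 or 3, and so was AT2G07751 (-0.33, adjusted p = 0.0497). nad4L was lower in iae1 too (-0.36, adjusted p = 0.0492). The AT2G07751 and nad4L calls lay at the threshold, and each was lost in 8 of the 9 fits that left out 1 array. Once the GAPDH ratio entered the fit 3 of the 9 were called, namely nad4 (0.85, adjusted p = 0.0019), ccb452 (-0.68, adjusted p = 0.0101) and 244981_at (-0.55, adjusted p = 0.0409). Over all 14404 tested probe sets that fit called 1102 in this comparison, against 2825 without the ratio.

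Because nad4 and ccb452 moved in opposite directions in iae2, their difference within each array was also read, a pair chosen after the values were seen and given without a test. Only its change between arrays can be read, since probe sets differ in brightness for the same amount of RNA. On the log2(signal + 16) scale nad4 minus ccb452 was 0.481, 0.388 and 0.599 in iae2, against 1.59, 1.87 and 1.38 in B1798. In iae1 it was 1.89, 1.96 and 2.02. The iae2 arrays stood apart from the other 6. As a ratio of linear signals, which the scaling of an array does not alter, nad4 over ccb452 was 1.44, 1.34 and 1.56 in iae2, against 3.29, 4.07 and 2.81 in B1798, and in iae1 it was 4.13, 4.38 and 4.53.

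**Figure D3:**
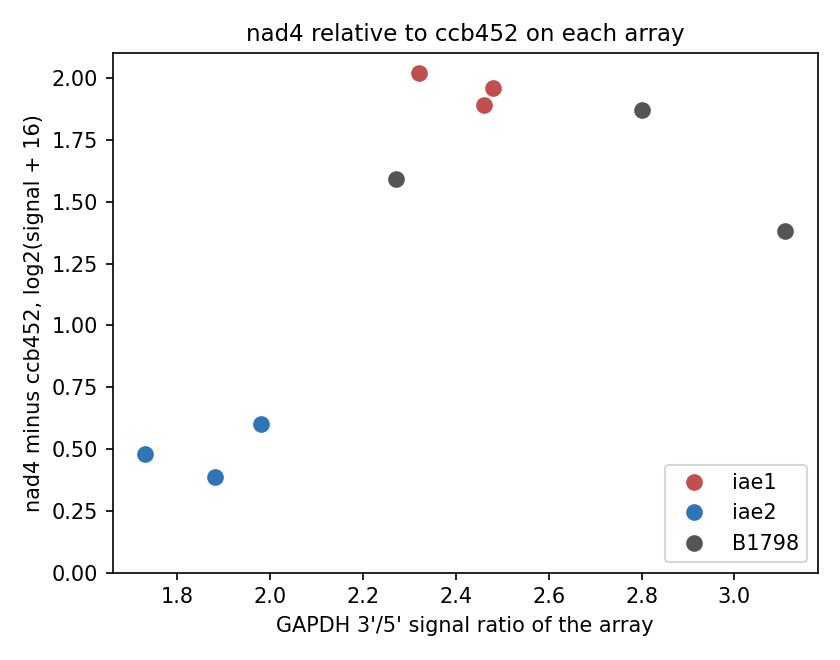
The nad4 signal minus the ccb452 signal on the log2(signal + 16) scale (vertical axis) against the GAPDH 3'/5' signal ratio (horizontal axis, not starting at 0), with 1 point per array. The 3 iae2 arrays lie between 0.388 and 0.599 and at GAPDH ratios of 1.73 to 1.98, below the other 6 arrays on both axes, so the line and the ratio cannot be told apart here.

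In RefSeq's order of 33 protein-coding genes of the Columbia mitochondrial genome (assembly TAIR10.1), ccmFC, nad4 and mttB follow each other. The probe sets of these neighbours had log2 fold changes of 0.51 for ccb452, -0.61 for nad4 and -0.30 for orfX in iae2 against B1798, of which the last did not pass. cox2 and ccmB are also neighbours, with -0.40 for cox2 and 0.04 for ccb206 in iae2. The fold changes thus differed in sign between ccb452 and nad4, and had the same sign for nad4 and orfX. That of ccb206 was too near 0 for its sign to be read (SE 0.12), and it was -0.02 without B1798 replicate 1 or 2. The order in Ler was not examined.

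The signals of the 22 members added up to similar totals on all arrays: 1840 to 1890 in iae1 and 1772 to 1907 in iae2, against 1790 to 1842 in B1798. The ranges of iae2 and B1798 overlapped. Bright members weigh most in these totals, with mean signals of 347 for nad4 and 268 for 244906_at. Rises and falls of single members can cancel in them. The arrays were fully separated for 3 of 22 members in iae1 against B1798 (background 24.7%), for 10 of 22 in iae2 against B1798 (33.3%) and for 9 of 22 in iae1 against iae2 (35.8%). Of the 8 s-type members 3 were called in iae2 (37.5%), and of the other 14 members 4 were (28.6%), where 17.8% of all tested probe sets were called.

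Of the plastid-encoded transcripts of the same block and minimum, 68 probe sets, 9 were called in iae1 (8 higher, 1 lower) against B1798. In iae2 14 were called (4 higher, 10 lower). These are 13.2% in iae1 and 20.6% in iae2, where 7.21% and 17.8% of all tested probe sets were called. The median log2 fold change in iae2 was 0.166 for the mitochondrial set and -0.0812 for the plastid set, and in iae1 it was 0.0398 and 0.0471. These counts and medians are a description, and the difference between the sets was not tested. Among the mitochondrial members 15 of 22 had a fold change above 0 in iae2, and among the plastid ones 22 of 68.

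**Figure D4:**
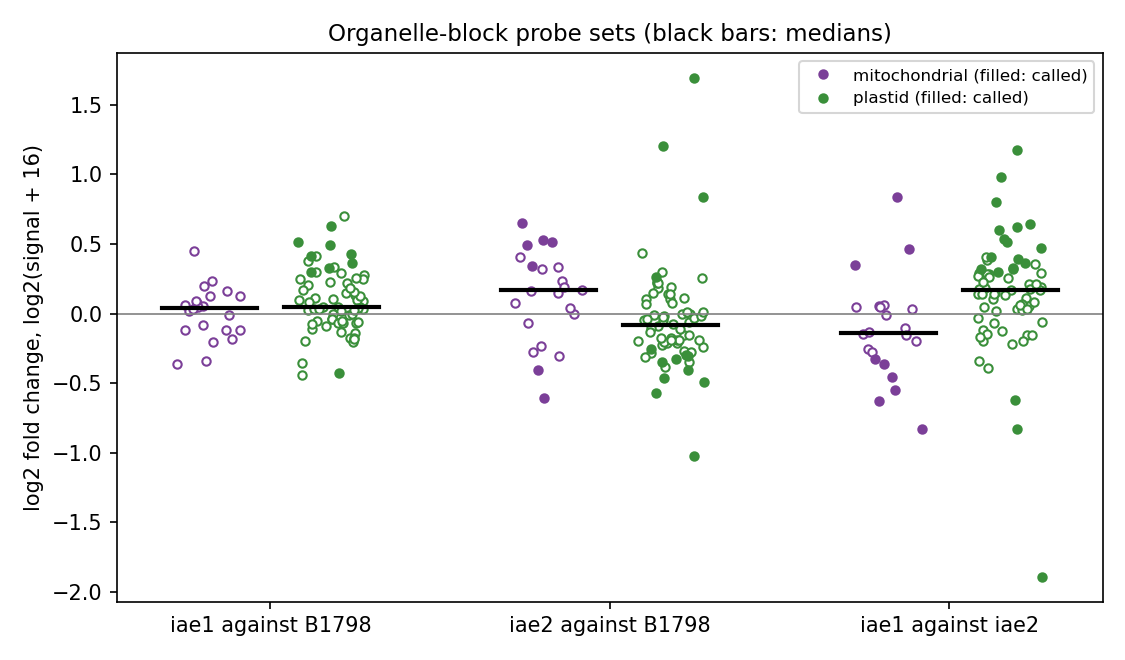
Log2 fold changes on the log2(signal + 16) scale (vertical axis) for the 22 mitochondrial and the 68 plastid probe sets in the 3 comparisons, with filled points for called probe sets and black bars for medians. In iae2 against B1798 the mitochondrial points lie between -0.61 and 0.65 around a median of 0.166, while the plastid median is -0.0812.

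The nuclear genes that work with these transcripts were read from lists of 83 loci, of which 25 were tested and 29 had a probe set named with 1 gene. In iae1 0 of the 25 were called against B1798, and in iae2 2 were higher and 1 was lower. Over all tested probe sets 7.21% were called in iae1 and 17.8% in iae2, and the counts of these lists did not exceed those shares. FRO1, the gene of a small accessory subunit of complex I, had 589.8, 636.8 and 610.7 in iae2 against 475.2, 528.8 and 478.9 in B1798, with no overlap (log2 fold change 0.30, adjusted p = 0.0104). CYTC-1, a gene of cytochrome c itself, had 1562.2, 1611.0 and 1756.4 in iae2 against 1845.2, 1981.5 and 2029.6 in B1798, also with no overlap (-0.25, adjusted p = 0.0327). The third was AT2G01090, the hinge protein gene of the cytochrome bc1 complex, with 186.2, 199.3 and 235.6 in iae2 against 10.5, 15.3 and 12.4 in B1798 (2.95, adjusted p = 3.03e-10). It was also dim in iae1 (12.3, 18.2 and 18.9), where the array medians ran from 35.9 to 38.5 over all arrays. It may thus have met the filter through its iae2 arrays alone, and its adjusted p is then no separate support.

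The other lists gave no call against B1798. Of 3 complex II genes the log2 fold changes in iae2 ran down to -0.23 for SDH2-2 (adjusted p = 0.176), and SDH1-1 and SDH2-1, genes of its flavoprotein and iron-sulfur subunits, had -0.11 and -0.03. AT3G27240, a cytochrome c1 gene, had 0.21 in iae1 (adjusted p = 0.0819), and MPPBETA, the beta subunit of the processing peptidase within complex III, had 0.21 in iae2 (adjusted p = 0.0531). The 3 tested genes of complex IV and the 2 of the ATP synthase had 0 calls against B1798, and AT5G47030 of the ATP synthase was lower in iae1 than in iae2 (-0.34, adjusted p = 0.0132). NDB1, NDB2, NDB3 and NDC1, the alternative NAD(P)H dehydrogenases that bypass complex I, had log2 values in that order of 0.31, 0.12, 0.21 and 0.04 for iae1 and of 0.02, 0.15, -0.16 and -0.05 for iae2, and 0 passed. AT2G21640, which is known to respond to oxidative stress, had 0.27 in iae1 and 0.31 in iae2 (adjusted p = 0.208 and 0.0888), and OSB1, a DNA-binding protein of the mitochondrial genome, had -0.09 and -0.14. No locus of the import list had a probe set named here.

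Markers of tissues were read beside these values. The summed signal of 4 green cotyledon markers was 5776 to 6481 in iae1 and 6940 to 7580 in iae2, against 5769 to 6170 in B1798, so that iae2 lay above B1798 and iae1 overlapped it. In iae2 2 of the 4 were called, LHCB4.2 (log2 fold change 0.59, adjusted p = 0.000188) and PRK (0.28, adjusted p = 0.0219), and LHCB4.2 made up most of the difference in the sum. RCA, the brightest of them, had 0.01 (adjusted p = 0.97) and SBPASE 0.15 (adjusted p = 0.283) in iae2, while SBPASE was called in iae1 (0.31, adjusted p = 0.0458). Roots are not in the labelled material, and the summed signal of 3 root markers was 3972 to 4209 in iae1 and 3325 to 3684 in iae2, against 4008 to 4471 in B1798. That sum is almost all PYK10, which fell in iae2 (-0.33, adjusted p = 0.00898). The other root markers had values of the opposite sign in iae2, 0.31 for EXPA7 (adjusted p = 0.135) and 0.34 for AT5G17820 (adjusted p = 0.0695), both without overlap of arrays, and AT5G17820 was called higher in iae1 (0.51, adjusted p = 0.0202). The shoot meristem list was read by LAS and CLV3, with overlapping sums of 36.6 to 47.0 in iae1 and 33.4 to 47.7 in iae2, against 31.8 to 40.2 in B1798, and CLV3 was near 0 with a mean signal of 4.2. The part of these differences in the mitochondrial values was not tested.

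The 30 probe sets under the minimum had mean signals of 0.878 to 21.3. The nearest to it were 244947_at at 21.3 and AT2G07674 at 20.9 below, and an unnamed member at 26.5 above. ccb203, named ccmFN2 in RefSeq and another piece of CcmF, had a mean signal of 17.7, nad7, a matrix-arm subunit of complex I, 9.08, and matR, the maturase gene carried inside a nad1 intron, 2.58. The symbol rule also left out 244944_s_at, annotated to rps3 and rpl16, ribosomal protein genes that both organelle genomes carry. The gene identifiers of 244944_s_at match neither the plastid pair nor the mitochondrial entries in RefSeq, so they do not place it in either genome. The signals of 244944_s_at were 299.6, 346.9 and 306.8 in iae1 and 305.8, 248.5 and 308.9 in iae2, against 290.3, 261.6 and 293.9 in B1798. Log2 differences from B1798 of 0.16 for iae1 and 0.02 for iae2 did not pass (adjusted p = 0.349 and 0.9).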

How the data were processed

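The authors deposited 1 intensity signal per probe set on a linear scale for 9 arrays, and how probes were summarised is not given in the sources used here. These signals had a mean of 100 on every array after 2 percent of probe sets were trimmed at each end, so they had been scaled to a common level. Per the labels, cRNA was made from oligo-dT-primed cDNA and labelled with biotin. The 64 control probe sets were left out, and a probe set was tested if it reached the 40th percentile of its array on at least 3 of the 9 arrays. The 14404 tested probe sets were fitted on log2(signal + 16) with limma 3.58.1 in R 4.3.3, with a mean per line, an intensity trend and two-sided contrasts. Benjamini-Hochberg adjustment ran over all tested probe sets. The fit was tested before use on simulated data, in the comparison of iae1 with B1798. It recovered 63 of 100 log2 changes of 0.5 and 99 of 100 of 1, with 6 false calls, so changes of 0.5 or less can be missed.

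The members, the gene lists and the tests were chosen with earlier results of these data known. By rule, the text names members with 1 gene symbol, called members, the 8 brightest and the extremes of each comparison, and up to 3 nuclear genes per list by adjusted p. Signals of the remaining members, and the nad4 to ccb452 difference, were added after their values were seen. Symbols come from the platform annotation, with RefSeq names from assembly TAIR10.1, and nuclear genes were represented by the probe set with the highest mean signal. The alternatives changed the pseudocount (4 or 64), normalization, filter, variance trend, arrays in the fit, member minimum (50), replicate block and GAPDH covariate. Plots came from matplotlib 3.10.9 under Python 3.11.15. With 3 arrays a line, precision is limited by their number.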

Additional observations from a re-analysis of the deposited data

Results flagged for a closer look

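For 9 of the 22 members (40.9%) the change against B1798 in iae1 differed from that in iae2, by the limma contrast of iae1 with iae2. This contrast tests the difference itself, and it called 19.6% of all tested probe sets. The calls of nad4L and AT2G07751 were each lost in 8 of the 9 fits that left out 1 array. Without the filter on dim probe sets they were lost too, as were those of orfX, ccb382 and AT2G07776. With the GAPDH covariate nad4, ccb452 and 244981_at stayed called, and over all 14404 tested probe sets 1102 were called. The difference on the log2 scale, iae1 minus iae2, was 0.84 for nad4, 0.46 for orfX and 0.35 for ccb382. It was -0.83 for 244921_s_at, -0.63 for ccb452, -0.55 for AT2G07776, -0.46 for 244981_at, -0.36 for nad4L and -0.33 for AT2G07751. Of these, nad4 and AT2G07776 had iae1 and iae2 on opposite sides of B1798 with no overlap of arrays: nad4 had 423.5 to 452.3 in iae1 and 224.3 to 257.7 in iae2, against 336.2 to 405.2 in B1798, and AT2G07776 had 15.0 to 34.0 in iae1 and 41.5 to 46.2 in iae2, against 35.3 to 38.1 in B1798. Against B1798 nad4 was called only in iae2. AT2G07776 was called in neither line (limma adjusted p = 0.181 in iae1 and 0.445 in iae2), and leaving out 1 array brought its iae1 fold change to as little as -0.16.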

How the results depend on the processing

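The number of members called in iae2 against B1798 was 7, and it was within 1.5 times of that under each setting tried but 1: with the GAPDH ratio as a covariate it was 0. Leaving out 1 array at a time, it ran from 6 to 7. In iae1 against B1798 it was 0 under each setting, except that leaving out 1 array at a time gave 0 to 1, the 1 being 244990_s_at without B1798 replicate 1. Between iae1 and iae2 the number was 9, and it was 4 with no filter, 3 with the GAPDH covariate and 4 to 8 with 1 array left out, the 4 being without iae2 replicate 3. The replicate block gave 0, 7 and 7 calls in these 3 comparisons. Over all 14404 tested probe sets the GAPDH covariate took the calls from 2558 to 393 in iae2 against B1798. Between iae1 and iae2 it took them from 2825 to 1102. Arrays with the same replicate number had correlations of deviations from -0.147 to 0.141, so the numbers share only a number and were not taken as pairs. In 42 cases a fold change that passed in neither fit changed sign, and 0 called fold changes did. Signals near the dim end, under 60 for 14 of 22 members, limit what could be detected.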
